A study of Mus musculus with 12 samples.

Results

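The genes described here are 7 genes of the Notch pathway in cultured mouse CD8 T cells: the receptors Notch1 and Notch2, the DNA-binding protein Rbpj, its coactivator Maml1, the target genes Hes1 and Nrarp, and Dtx1. They are 7 of the 46078 genes in the count tables and were chosen by symbol, with earlier results of these libraries in view. Which measured values played a part in that choice is not recorded, so their levels, fold changes and calls are given as a description, with no p-value. Of the 7 genes, 6 passed the filter on low counts and Hes1 did not.

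The cells were CD8 T cells from the spleen of C57BL/6 mice, with RNA taken on day 7 of culture. Every culture contained the growth cytokines IL-2 and IL-15, and 1 group, named IL-2 + IL-15, contained nothing else. The other groups had in addition all-trans retinoic acid (RA), a derivative of vitamin A that binds nuclear receptors, or TGFβ, a cytokine read through SMAD proteins, or the pair (TGFβ + RA). Each group had 3 libraries, lists of 4 means follow the order cytokines alone, RA, TGFβ, both, and the series title gives the aim as making tissue-resident memory CD8 T cells in culture. The labels call the libraries biological replicates without saying whether each came from its own animal, so the errors measure the spread between these libraries, which may be technical.

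Notch receptors are bound by ligands on neighbouring cells and then cut by ADAM proteases and by gamma-secretase, which releases the intracellular part of the receptor. That part enters the nucleus and joins RBPJ and a Mastermind protein such as MAML1 on target genes, where RBPJ alone is held with corepressors. In T cells the pathway is known above all for directing early thymic development, and in mature CD8 T cells for supporting effector differentiation and tissue-resident memory. Deltex proteins, of which Dtx1 encodes the founding mammalian member, are ubiquitin ligases that bind the Notch receptor, and Dtx1 is also known from studies of T cell anergy.

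Promoters of Dtx1, Rbpj and Nrarp are shown because these are the 3 of the 7 genes whose response to RA differed by call between cultures with and without TGFβ. Each sequence is the 250 bases before a RefSeq start site on the gene's own strand in GRCm38.p6, and capitals mark TGGGAA, the core of the RBPJ site, or its reverse complement TTCCCA.
Dtx1, minus strand, chr5:120711670-120711919: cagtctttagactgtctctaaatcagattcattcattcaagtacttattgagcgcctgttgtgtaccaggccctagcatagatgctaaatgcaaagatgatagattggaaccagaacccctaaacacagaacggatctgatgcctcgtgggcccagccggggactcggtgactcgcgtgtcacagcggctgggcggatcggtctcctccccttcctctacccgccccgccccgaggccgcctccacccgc
Rbpj, plus strand, chr5:53590096-53590345: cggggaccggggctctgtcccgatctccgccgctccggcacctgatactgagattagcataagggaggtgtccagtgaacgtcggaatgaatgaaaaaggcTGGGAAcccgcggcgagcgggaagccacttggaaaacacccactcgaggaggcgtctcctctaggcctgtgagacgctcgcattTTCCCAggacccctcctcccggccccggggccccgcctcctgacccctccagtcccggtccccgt
Nrarp, plus strand, chr2:25180508-25180757: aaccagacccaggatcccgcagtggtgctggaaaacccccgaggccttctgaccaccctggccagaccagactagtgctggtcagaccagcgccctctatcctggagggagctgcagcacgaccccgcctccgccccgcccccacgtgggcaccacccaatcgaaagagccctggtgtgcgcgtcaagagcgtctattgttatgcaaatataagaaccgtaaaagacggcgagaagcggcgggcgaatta

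The motif TGGGAA was searched on both strands of RefSeq windows of 300 bases, from 250 before to 50 after a start site. It lay in 2 of the 7 windows of these genes, both at Rbpj, and in 25.6% of all 32851 windows. By gene, the motif lay in 28.3% of all 27025 genes and in Rbpj alone of the 6 genes with a window. In the Rbpj window shown it began at position -149 from the start on the gene's strand and at -65 on the other strand. The other Rbpj window overlaps this one, and its only copy, at -205, is the same bases as that at -65. The longer forms CGTGGGAA and TGTGGGAA, which contain TGGGAA, were in 0.734% and 1.86% of all windows and in 0 of these 7. Windows were matched by symbol for 6 of the 7 genes, with 2 for Rbpj, and Hes1 had none in the table.

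Libraries held 18300206 to 33477037 counts, and 14009 genes were tested. Levels are given as CPM, counts scaled to library size by TMM, which can be compared between libraries for 1 gene. Genes were compared with each other as RPKM, which is CPM per kilobase of exon. A log2 fold change is given ± SE, and a gene is called where edgeR's quasi-likelihood test over all genes gave a Benjamini-Hochberg adjusted p under 0.05. All 7 markers of CD8 T cells were expressed in every group, with a summed level of 4200.0 to 4818 CPM in IL-2 + IL-15 and RA and 6960 to 8016 in TGFβ and TGFβ + RA. The 9 myeloid markers summed to at most 1.31 CPM in 11 libraries and to 23.1 CPM in TGFβ + RA replicate 3, from Lyz2, S100a8 and S100a9. In bulk RNA, fewer cells that express a gene and less of its RNA per cell cannot be told apart.

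**Figure D1:**
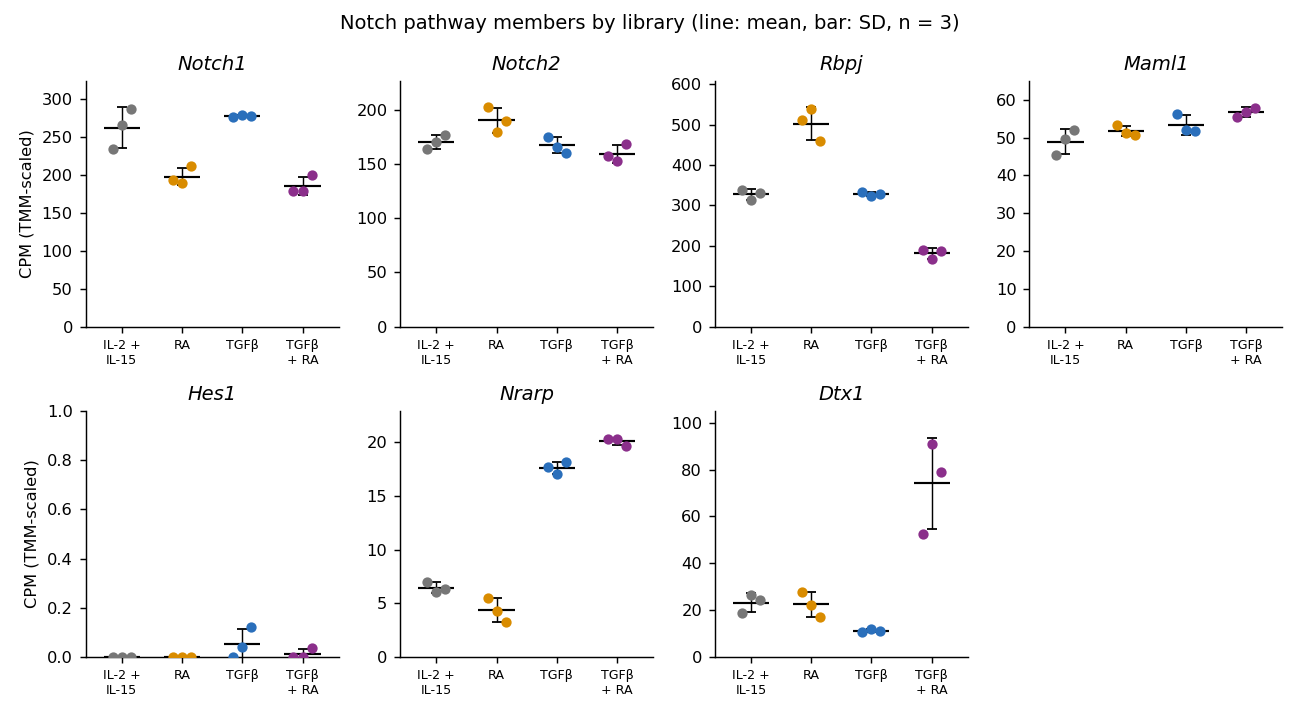
Level of each of the 7 genes in CPM (TMM-scaled, linear axis from 0) in the 12 libraries, with 1 point a library, a line at the mean and a bar of 1 SD over the 3 libraries of a group. Dtx1 lies between 52.6 and 90.9 CPM in TGFβ + RA and at or below 27.8 elsewhere, Rbpj is highest in RA and lowest in TGFβ + RA, and Hes1 is at or near 0 throughout.

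Rbpj had the highest level of the 7 genes in IL-2 + IL-15, at 25.7 ± 1.09 RPKM (SD, n = 3). Notch1 followed at 18.4 ± 1.87, Notch2 at 15.8 ± 0.607, Maml1 at 8.85 ± 0.601, Dtx1 at 4.39 ± 0.75 and Nrarp at 2.49 ± 0.193 RPKM. In RA Rbpj stood further above the receptors, at 39.4 ± 3.15 RPKM against 17.7 ± 1.07 for Notch2 and 13.9 ± 0.825 for Notch1. In TGFβ + RA the order was Notch2 (14.8 ± 0.789), Rbpj (14.2 ± 1.04), Dtx1 (14.1 ± 3.71) and Notch1 (13.0 ± 0.856), of which each overlapped its neighbours, followed by Maml1 at 10.3 ± 0.224 and Nrarp at 7.78 ± 0.138 RPKM.

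Notch1, the main Notch receptor of T cells (ENSMUSG00000026923, chromosome 2, 26457903 to 26516663, GRCm38), was lower in both groups with RA. Its levels were 234, 265 and 287 CPM in IL-2 + IL-15 and 193, 189 and 211 CPM in RA. In the presence of TGFβ they were 276, 278 and 277 CPM without RA and 178, 179 and 199 CPM with it. The 6 libraries with RA all lay below the 6 without. The log2 fold change for RA was -0.41 ± 0.07 without TGFβ and -0.58 ± 0.07 with TGFβ, and the difference between these effects, -0.17 ± 0.10, was not called. TGFβ alone gave 0.08 ± 0.07, with values inside the range of IL-2 + IL-15. Of the exon bases of Notch1, 9.76% are also annotated on the opposite strand, to genes with 11 or fewer counts in any library.

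Notch2, a receptor also known for its role in marginal zone B cells (ENSMUSG00000027878, chromosome 3, 98013527 to 98150361), varied little. Its levels were 164, 170 and 177 CPM in IL-2 + IL-15, 203, 180 and 190 CPM in RA, 175, 166 and 161 CPM in TGFβ and 157, 153 and 169 CPM in TGFβ + RA. The RA libraries lay above all others, the closest at 180 against 177 CPM, and the other 3 groups overlapped. The log2 fold change for RA was 0.16 ± 0.06 without TGFβ, not called, and -0.07 ± 0.06 with it. Same-numbered libraries of RA and IL-2 + IL-15 deviated together (correlations 0.34, 0.13 and 0.27), which does not establish that they were paired. With the replicate number as a block the RA effect on Notch2 was called (0.16). It was also called without RA replicate 2 (0.21), RA replicate 3 (0.18) or TGFβ + RA replicate 3 (0.16). With all libraries, DESeq2 size factors and the DESeq2 Wald test called it too (0.17 in each). The interaction of -0.23 ± 0.08 was not called in the main fit of all libraries. The DESeq2 Wald test on all libraries called it (-0.23), as did the fit of 9 libraries named below (-0.27). It was also called without RA replicate 2, RA replicate 3 or TGFβ + RA replicate 3 (-0.29, -0.25 and -0.27). TGFβ + RA was lower than RA (-0.26 ± 0.06, called).

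Rbpj encodes the protein through which all 4 Notch receptors reach DNA (ENSMUSG00000039191, chromosome 5, 53466152 to 53657362), and RA moved it in opposite directions with and without TGFβ. It stood at 339, 312 and 332 CPM in IL-2 + IL-15 and at 511, 538 and 459 CPM in RA. It stood at 333, 324 and 328 CPM in TGFβ and at 190, 166 and 187 CPM in TGFβ + RA. IL-2 + IL-15 and TGFβ overlapped, RA lay wholly above them and TGFβ + RA wholly below. RA thus gave 0.62 ± 0.06 without TGFβ and -0.86 ± 0.07 with it, a difference of -1.47 ± 0.09. TGFβ gave 0.00 ± 0.06 without RA and -1.47 ± 0.07 with RA, so that the level in TGFβ + RA was 2.78-fold below that in RA.

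Maml1, a Mastermind coactivator (ENSMUSG00000050567, chromosome 11, 50255634 to 50292311), stayed within a narrow range. Its levels were 45.3, 49.6 and 51.9 CPM in IL-2 + IL-15 and 53.3, 51.2 and 50.8 CPM in RA. They were 56.3, 52.1 and 51.7 CPM in TGFβ and 55.5, 56.9 and 57.9 CPM in TGFβ + RA. TGFβ + RA lay above IL-2 + IL-15 without overlap (0.21 ± 0.06, called), and this call was lost in a fit of 9 libraries that left out IL-2 + IL-15 replicate 1, RA replicate 3 and TGFβ + RA replicate 3 (0.14). The log2 fold changes of the other comparisons of 2 groups were between 0.08 and 0.13, and none was called in the main fit. That of TGFβ + RA against RA was called with DESeq2 size factors and with only the groups compared (0.14 in each).

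Hes1, a basic helix-loop-helix repressor and the best known Notch target (ENSMUSG00000022528, chromosome 16, 30064384 to 30067796), was almost undetected. It had 0 counts in all IL-2 + IL-15 and RA libraries, which allows up to 0.0351 and 0.0417 CPM over the summed libraries of each group. TGFβ held 4 counts in all, 0, 1 and 3 by library, and TGFβ + RA held 1. The rate in TGFβ was 0.0543 CPM with an exact 95% interval of 0.0148 to 0.139, which covers counting error only. No difference between groups could be read at this depth.

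Nrarp, the ankyrin repeat protein that binds the Notch complex and limits its output (ENSMUSG00000078202, chromosome 2, 25180758 to 25183339), was higher in both groups with TGFβ. Its levels were 6.99, 6.02 and 6.29 CPM in IL-2 + IL-15 and 5.46, 4.29 and 3.28 CPM in RA. They were 17.7, 17.03 and 18.2 CPM in TGFβ and 20.3, 20.3 and 19.7 CPM in TGFβ + RA. The 6 libraries with TGFβ all lay above the 6 without it, and no group overlapped another. TGFβ gave 1.45 ± 0.12 without RA and 2.21 ± 0.13 with RA. RA gave -0.56 ± 0.14 without TGFβ and 0.19 ± 0.11 with it, and the difference of 0.75 ± 0.18 was called. The decrease with RA alone was -0.34 and not called in the fit of 9 libraries, and it was not called when only the 6 libraries of that comparison were fitted (-0.55). Of the exon bases of Nrarp, 79.4% are also annotated on the opposite strand, to Gm38287, which had 11 or fewer counts in any library against 69 to 646 for Nrarp. The strand setting of the counting is not given in the sources used here, so a part of these counts may belong to the antisense gene.

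Dtx1 (ENSMUSG00000029603, chromosome 5, 120680202 to 120711927) was changed least by RA alone and most by RA together with TGFβ. Its levels were 18.7, 26.3 and 24.4 CPM in IL-2 + IL-15 and 27.8, 22.1 and 17.1 CPM in RA, and these groups overlapped fully. The TGFβ libraries, at 10.7, 11.9 and 11.1 CPM, lay below all others. The TGFβ + RA libraries, at 52.6, 90.9 and 78.8 CPM, lay above all others, with the widest spread of any group. TGFβ alone gave -1.05 ± 0.21 and TGFβ + RA gave 1.69 ± 0.19 against IL-2 + IL-15. RA gave -0.05 ± 0.20 without TGFβ and 2.73 ± 0.21 with it, a difference of 2.78 ± 0.29, and Dtx1 was 6.64-fold higher in TGFβ + RA than in TGFβ. TGFβ + RA replicate 3, the library with myeloid transcripts, lay between the other libraries of its group.

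**Figure D2:**
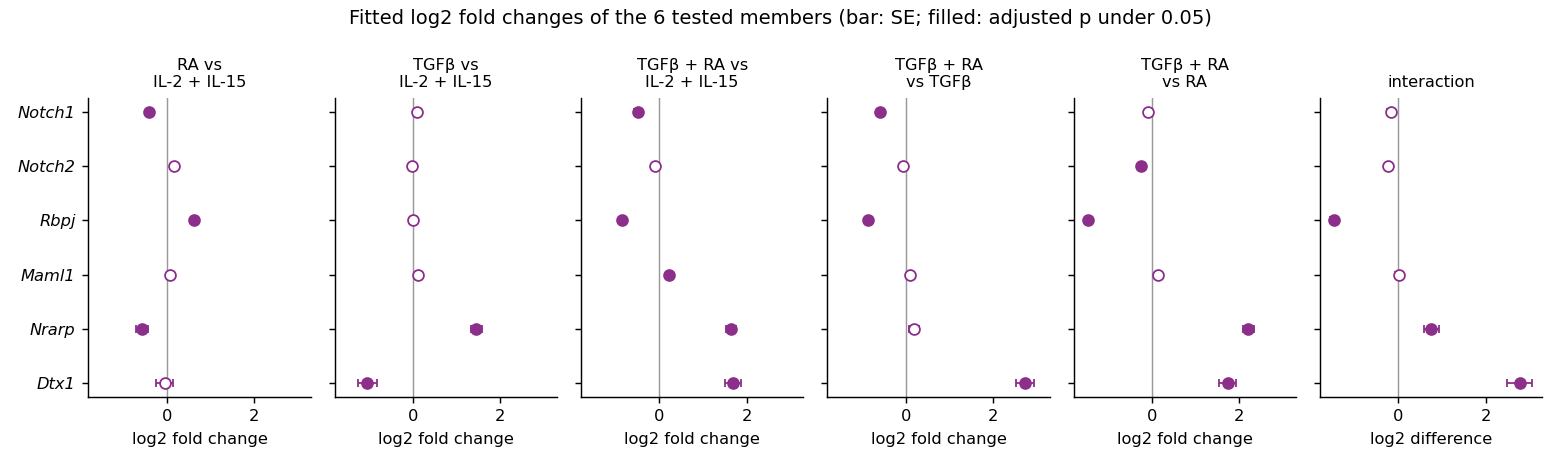
Fitted log2 fold changes of the 6 tested genes in the 5 comparisons of 2 groups, and the log2 difference between the effect of RA with and without TGFβ (interaction). Bars are SE from the fit of 12 libraries and filled points are called genes, with Rbpj at -1.47 and Dtx1 at 2.78 for the interaction.

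Counts of calls among the 7 genes are set beside those of all 14009 genes tested. With RA alone 1 was called higher and 2 lower, where 12.4% of all genes were called higher and 14.3% lower. For TGFβ alone 1 was higher and 1 lower, against 20.7% and 22.4% of all genes. With both agents against the cytokines alone these counts were 3 higher and 2 lower, against 30.8% and 32.4%. RA in the presence of TGFβ gave 1 higher and 2 lower, against 20.3% and 22.7%, and TGFβ in the presence of RA gave 2 higher and 2 lower, against 29.4% and 30.8%. The interaction was called upward for Dtx1 and Nrarp and downward for Rbpj, against 6.95% and 12.3% of all genes. The comparisons share libraries, and nothing is read from these counts, since the genes were chosen with results of these libraries in view.

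Likeness of pattern was measured as Pearson's r of log2 CPM over the 12 libraries, which share group and depth, against 9568 genes whose mean CPM was 5 or more. The 3 genes most like Dtx1 were BC017643 (r = 0.967), Ddx58, the viral RNA sensor RIG-I (0.950), and Parp12, an interferon-stimulated gene (0.949). Parp12 stood at 13.7, 19.4, 11.4 and 37.5 CPM in the 4 groups. Rbpj was most like Tnfrsf9, the costimulatory receptor 4-1BB (0.969), Adgra3 (0.967) and Sept11 (0.965). Tnfrsf9 stood at 30.9, 53.4, 31.6 and 15.7 CPM in the 4 groups. Nrarp was most like Irf2bpl (0.992), Upp1, the enzyme uridine phosphorylase (0.987), and the kinase gene Src (0.984). For Notch1, r was 0.980 with Tep1 and 0.979 with Fry. The best values for Notch2 and Maml1 were lower, at 0.908 for Pde8a and 0.948 for Purb. Among the 6 tested genes themselves r ran from -0.79 for Rbpj and Nrarp to 0.79 for Rbpj and Notch2.

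The rest of the pathway was taken from 11 lists set by role, with 99 other genes, of which 86 were tested. With RA alone 24 were called higher and 14 lower, which is 27.9% and 16.3% of those tested, against 12.4% and 14.3% of all genes. TGFβ alone gave 19 higher and 23 lower, or 22.1% and 26.7%, near the 20.7% and 22.4% of all genes. Both agents gave 31 higher and 27 lower, or 36.0% and 31.4%, against 30.8% and 32.4%. RA in the presence of TGFβ gave 29 higher and 20 lower, or 33.7% and 23.3% against 20.3% and 22.7%, and TGFβ in the presence of RA gave 31 higher and 30 lower, or 36.0% and 34.9% against 29.4% and 30.8%. These lists too were chosen with results of these libraries known. Most genes named from them below were picked as those with the smallest adjusted p. Their adjusted p-values come from the same values that picked them, so they describe the fit and are no separate support. The median log2 fold change of the 86 genes lay between 0.01 and 0.06 in these comparisons, and that of all genes tested between -0.00281 and 0.0114.

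**Figure D3:**
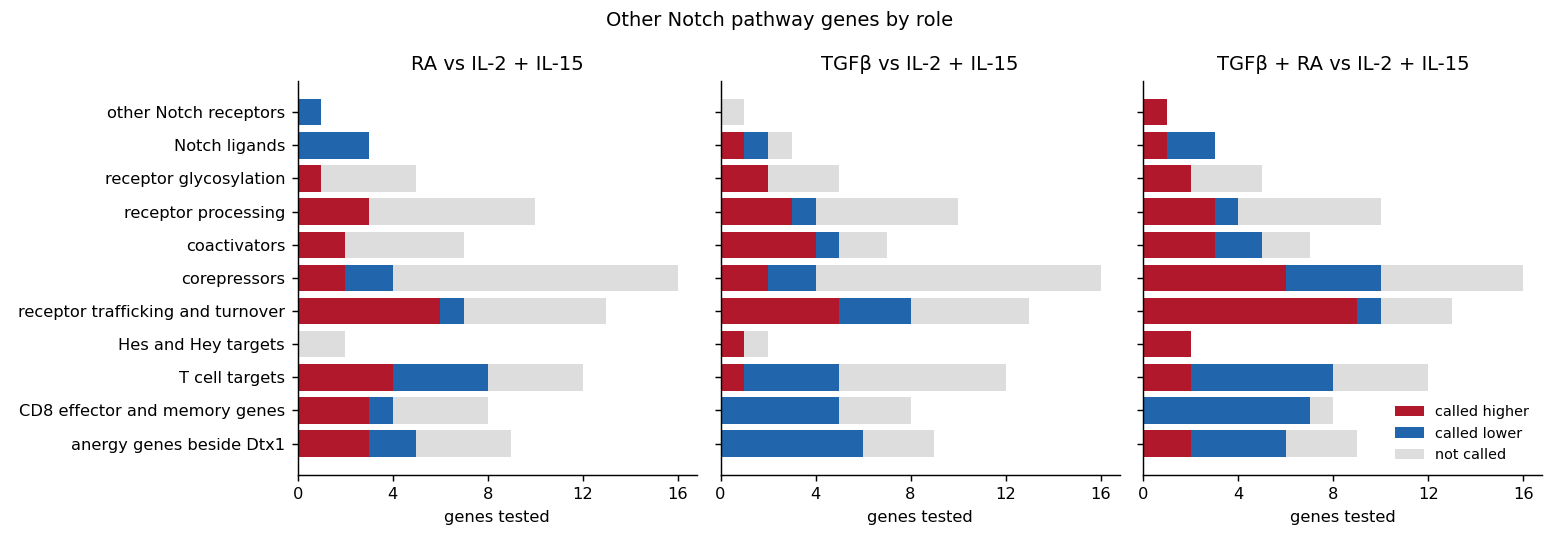
Number of tested genes in each of the 11 lists of other Notch pathway genes that were called higher, called lower or not called against IL-2 + IL-15, for RA, TGFβ and TGFβ + RA. The list labelled receptor trafficking and turnover has 9 of 13 tested genes higher in TGFβ + RA, where 30.8% of all genes were. The CD8 effector and memory list has 7 of 8 lower there, where 32.4% of all genes were.

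Of 13 tested genes listed for the trafficking and turnover of Notch receptors or their ligands, 6 were called higher and 1 lower in RA. Of all genes, 12.4% and 14.3% were. In TGFβ 5 were higher and 3 lower, against 20.7% and 22.4% of all genes, and in TGFβ + RA 9 were higher and 1 lower, against 30.8% and 32.4%. The median of the list in TGFβ + RA was 0.44, and no test compared it with other genes. Dtx4, a relative of Dtx1, stood at 15.9, 19.5 and 18.6 CPM in IL-2 + IL-15 and at 137, 130 and 129 CPM in RA. It stood at 45.7, 47.8 and 48.3 CPM in TGFβ and at 303, 316 and 291 CPM in TGFβ + RA. No group overlapped another, and Dtx4 rose by 2.87 ± 0.07 with RA (adjusted p = 5.57e-12), 1.39 ± 0.07 with TGFβ (4.8e-09) and 4.08 ± 0.07 with both (3.45e-13) in the edgeR quasi-likelihood test. Unlike that of Dtx1, its interaction of -0.19 ± 0.09 was not called (adjusted p = 0.159, edgeR quasi-likelihood test), and whether the interactions of Dtx1 and Dtx4 differ was not tested.

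The other Deltex genes moved less. Dtx3l, whose product pairs with the interferon-inducible PARP9, rose by 0.47 ± 0.07 in TGFβ + RA against IL-2 + IL-15 (adjusted p = 8.57e-05, edgeR quasi-likelihood test) and Dtx2 by 0.19 ± 0.07 (0.0233 by the same test). Dtx3 was at 275 ± 44.9 CPM in IL-2 + IL-15 and 347 ± 20.3 in TGFβ + RA (0.33 ± 0.22, adjusted p = 0.20, edgeR quasi-likelihood test).
Among the ubiquitin ligases, Itch, which targets Notch for degradation and is known from T cell anergy, was at 119.9 ± 2.62 CPM in IL-2 + IL-15 and 191 ± 17.4 CPM in RA, a rise of 0.67 ± 0.06 (adjusted p = 4.16e-06, edgeR quasi-likelihood test). Neurl3 stood at 246 ± 2.89, 303 ± 30.1, 448 ± 10.3 and 584 ± 12.9 CPM in the 4 groups, and Numbl, a Numb-like adaptor that opposes Notch, at 10.8 ± 1.10, 16.6 ± 4.45, 20.4 ± 0.705 and 26.95 ± 1.05 CPM. Both rose with TGFβ, by 0.86 ± 0.06 and 0.92 ± 0.15 (adjusted p = 1.35e-07 and 2.04e-04, edgeR quasi-likelihood test).

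**Figure D4:**
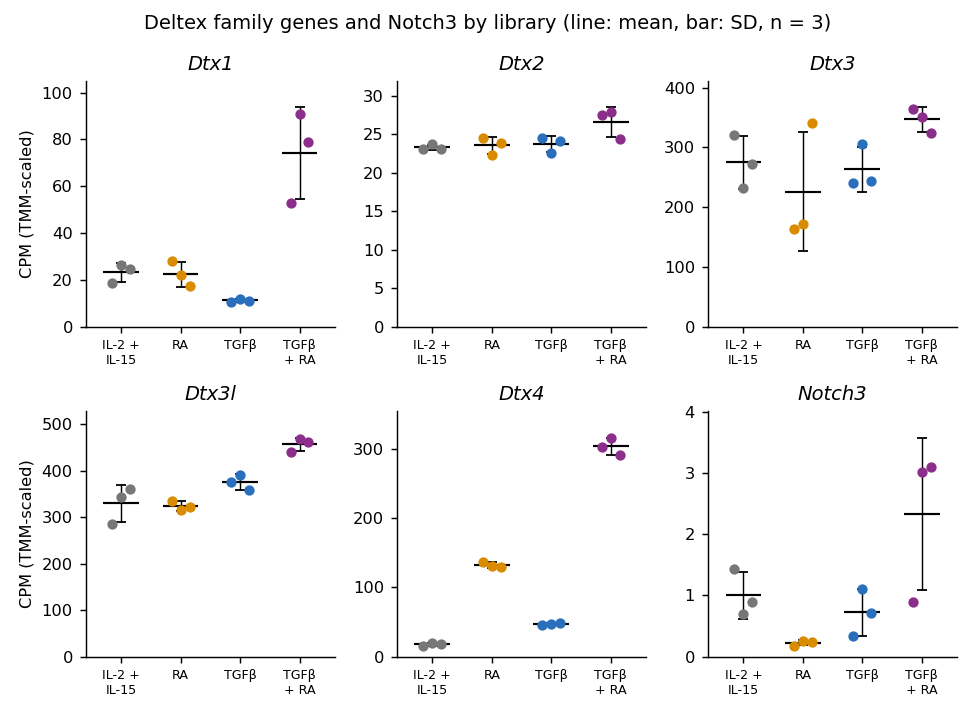
Level of the 5 Deltex family genes and of Notch3 in CPM (TMM-scaled, linear axis from 0) in the 12 libraries, with a line at the mean and a bar of 1 SD over the 3 libraries of a group. Dtx4 is separate in every group and reaches 316 CPM in TGFβ + RA, and in TGFβ + RA replicate 1 both Dtx1 and Notch3 are lowest of their group.

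Of the other receptors, Notch4 had 12 or fewer counts in any library and was not tested. Notch3, itself known as a Notch target in immature T cells, was low throughout, at 1.43, 0.692 and 0.89 CPM in IL-2 + IL-15, 0.182, 0.263 and 0.238 CPM in RA, 0.345, 1.11 and 0.721 CPM in TGFβ, and 0.90, 3.01 and 3.09 CPM in TGFβ + RA. The TGFβ + RA libraries lay above the RA libraries, and replicate 1 of TGFβ + RA lay inside the range of IL-2 + IL-15. Notch3 rose by 3.36 ± 0.55 with TGFβ in the presence of RA (adjusted p = 1.41e-04), and its interaction was 3.84 ± 0.75 (0.00294), both in the edgeR quasi-likelihood test. Its calls for RA alone (-2.10 ± 0.61, adjusted p = 0.0204, edgeR quasi-likelihood test) and for both agents against the cytokines alone (1.26 ± 0.42, 0.0177) were lost without single libraries. The first call failed by the same test without RA replicate 1 (adjusted p = 0.0633), RA replicate 2 (0.0569) or IL-2 + IL-15 replicate 1 (0.0739). The second failed without TGFβ + RA replicate 2 (0.0781) or 3 (0.0766), or IL-2 + IL-15 replicate 2 (0.0705) or 3 (0.0602).

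Ligands of Notch were scarce in these T cells, and 5 of the 8 listed, Dll1, Dll3, Dll4, Jag1 and Dner, had 20 or fewer counts in any library. Jag2, a ligand of the Jagged type, was lower with RA (-0.52 ± 0.12, adjusted p = 0.005, edgeR quasi-likelihood test), at 14.0 ± 2.34 CPM against 20.05 ± 1.52 CPM in IL-2 + IL-15. Dlk1, a Delta-like protein that lacks the receptor-binding domain of the classical ligands, stood at 1.502, 1.139 and 1.627 CPM in IL-2 + IL-15 and at 14.8, 11.8 and 14.6 CPM in TGFβ, a rise of 3.26 ± 0.23 (adjusted p = 1.3e-07, edgeR quasi-likelihood test). With RA it had 5 counts in the 3 libraries without TGFβ and 19 in the 3 with TGFβ, and RA in the presence of TGFβ gave -5.80 ± 0.30 (adjusted p = 4.41e-09, edgeR quasi-likelihood test).

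Of the 5 genes of receptor glycosylation, which tunes the receptor's choice of ligand, Lfng, a fringe glycosyltransferase, rose with TGFβ (0.39 ± 0.09) and fell when RA was added to TGFβ (-0.46 ± 0.09). Its levels were 268 ± 3.49, 271 ± 27.9, 350 ± 35.5 and 255 ± 23.7 CPM in the 4 groups. Pofut1, which adds the fucose that fringe proteins extend, rose with RA alone by 0.42 ± 0.06 and in the presence of TGFβ by 0.42 ± 0.06. Among 10 genes of receptor cleavage, Furin, the convertase of the first cut, rose with TGFβ by 0.55 ± 0.06 and with both agents by 0.88 ± 0.06. Ncstn, a subunit of gamma-secretase, rose with TGFβ by 0.27 ± 0.05. Psen2, a catalytic subunit of gamma-secretase, fell from 55.3 ± 14.1 CPM to 26.6 ± 2.08 CPM with TGFβ (-1.06 ± 0.16). These calls had an adjusted p no higher than 0.00247 (edgeR quasi-likelihood test).

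Of the coactivators, Maml2 fell when RA was added to TGFβ (-0.54 ± 0.08, adjusted p = 7.38e-05, edgeR quasi-likelihood test), with 83.2, 79.8 and 79.4 CPM in TGFβ and 57.7, 54.5 and 54.2 CPM in TGFβ + RA. Of the 16 corepressors, 6 rose and 4 fell in TGFβ + RA, or 37.5% and 25%, near the 30.8% and 32.4% of all genes. The Groucho-type corepressor gene Tle1 stood at 18.1 ± 1.44, 8.80 ± 0.836, 25.6 ± 2.07 and 10.4 ± 1.38 CPM in the 4 groups, and RA gave -1.04 ± 0.11 without TGFβ and -1.31 ± 0.11 with it (adjusted p = 1.57e-05 and 4.09e-07, edgeR quasi-likelihood test). Its relative Tle2 fell with RA in the presence of TGFβ (-1.28 ± 0.22, adjusted p = 4.25e-04, edgeR quasi-likelihood test).

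Of the 6 other Hes and Hey genes, the classical Notch targets beside Hes1, only Hes6 and Hey1 were tested, and Hey2 had 0 counts in all libraries. Hey1 had 1, 0 and 0 counts in IL-2 + IL-15, 3, 0 and 1 in RA, 23, 15 and 14 in TGFβ and 8, 18 and 9 in TGFβ + RA. It passed the filter on low counts only through the groups with TGFβ, so no p-value is given. From the summed counts the ratio to IL-2 + IL-15 was 60.4 in TGFβ, with an exact 95% interval of 10.4 to 2431, and 39.5 in TGFβ + RA, with 6.63 to 1602, both for counting error only. Even so Hey1 remained below 1 CPM in every library. Hes6, a relative of the other Hes genes that opposes Hes1, differed little, at 39.1 ± 3.39, 38.7 ± 1.77, 38.7 ± 1.86 and 44.3 ± 1.56 CPM, and its rise with both agents (0.18 ± 0.07) had an adjusted p of 0.0295 (edgeR quasi-likelihood test). The call failed without IL-2 + IL-15 replicate 2 (adjusted p = 0.0736) or 3 (0.145), or TGFβ + RA replicate 1 (0.0931) or 3 (0.0588), in the same test.

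Of 12 tested genes known as Notch targets in developing or leukaemic T cells, 4 rose and 4 fell with RA, against 12.4% and 14.3% of all genes. With TGFβ 1 rose and 4 fell, against 20.7% and 22.4%, and with both agents 2 rose and 6 fell, against 30.8% and 32.4%. Myc, a driver of growth, fell with TGFβ by 1.15 ± 0.05 on the log2 scale and Gata3, a T cell transcription factor, by 0.91 ± 0.09, each with an adjusted p no higher than 4.63e-06 (edgeR quasi-likelihood test). Ccnd1, a cyclin, was at 0.329 ± 0.103, 0.145 ± 0.0963, 4.92 ± 1.77 and 0.459 ± 0.136 CPM in the 4 groups, high in TGFβ alone. Of 8 tested CD8 effector and memory genes linked to Notch, RA alone raised 3 and lowered 1, against 12.4% and 14.3% of all genes. The median log2 fold change of the list in RA was 0.24. TGFβ raised 0 and lowered 5, where 22.4% of all genes were lower, and TGFβ + RA raised 0 and lowered 7, where 32.4% were. Id2, a regulator of effector cells, stood at 345 ± 48.6, 303 ± 63.1, 61.7 ± 5.34 and 34.5 ± 1.98 CPM in the 4 groups. Il7r, the receptor chain for IL-7, was at 811 ± 16.0 CPM in TGFβ and 408 ± 51.7 CPM in TGFβ + RA (-0.99 ± 0.08, adjusted p = 1.91e-07, edgeR quasi-likelihood test).

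Of the 9 anergy genes set beside Dtx1, 0 rose and 6 fell with TGFβ alone, against 20.7% and 22.4% of all genes. Dtx1 was also lower there. Both agents gave 2 higher and 4 lower, against 30.8% and 32.4% of all genes, and RA added to TGFβ gave 4 higher and 2 lower, against 20.3% and 22.7%. Nfatc2, a calcium-regulated transcription factor gene, had the signs of Dtx1 in these 3 comparisons, at -0.24 ± 0.05, 0.18 ± 0.05 and 0.42 ± 0.05 (adjusted p = 0.00216, 0.00751 and 1.95e-05, edgeR quasi-likelihood test). Nfatc1, Rnf128 and Dgkz had the same signs, but were not called for both agents against IL-2 + IL-15 (0.05 ± 0.05, 0.16 ± 0.27 and 0.10 ± 0.05). Egr2 and Egr3, transcription factors known to induce anergy genes, fell by 1.62 ± 0.22 and 1.59 ± 0.21 on the log2 scale, to 1.24 ± 0.225 and 1.17 ± 0.18 CPM (adjusted p = 2.16e-05 and 2.02e-05, edgeR quasi-likelihood test). Rnf128, the ubiquitin ligase GRAIL, rose with RA alone, from 1.87 ± 0.482 CPM to 6.42 ± 1.26 CPM (1.77 ± 0.25, adjusted p = 1.4e-04, edgeR quasi-likelihood test), and was at 2.14 ± 0.624 CPM in TGFβ + RA. Nfatc1, which encodes a calcium-regulated transcription factor, fell with TGFβ (-0.48 ± 0.05) and rose when RA was added to TGFβ (0.53 ± 0.05, adjusted p = 2.22e-06 and 6.64e-07, edgeR quasi-likelihood test).

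B cells are a cell type known for Notch2 and Dtx1, so their markers were read in the same libraries. Summed over 9 markers they reached 13.3 to 16.3 CPM in IL-2 + IL-15, 15.7 to 17.6 in RA, 29.1 to 31.6 in TGFβ and 22.5 to 26.6 in TGFβ + RA, mostly Cd79b. Of the defining markers, Fcer2a had 0 counts, Ms4a1 and Pax5 had at most 1 and Cr2 at most 2 counts in any library, where Dtx1 had at least 276. The 6 dendritic cell markers, mostly Itgax, which T cells also express, summed to 90.1 to 153 CPM in IL-2 + IL-15, 213 to 357 in RA, 29.5 to 30.1 in TGFβ and 56.5 to 70.1 in TGFβ + RA. Their defining members Siglech, Clec9a, Xcr1 and Flt3 had 0, at most 1, at most 5 and at most 6 counts in any library. Zbtb46, another defining member, had 236 to 278 counts in the TGFβ libraries and 10 to 41 in the others. The sum was highest in RA, as Rbpj and Notch2 were, and its part in those levels was not tested. The 3 CD4 T cell markers, mostly Zbtb7b, summed to 65.4 to 87.1 CPM without TGFβ and to 26.7 to 35.9 CPM with it. The 5 gamma delta T cell markers summed to 160.3 to 297 CPM without and 453 to 730 CPM with TGFβ, mostly from Tcrg-C2 and Tcrg-C4, and their part in the higher Nrarp was not tested. Trdc, which encodes the delta chain, had 660 to 1583 counts in the libraries without TGFβ and 241 to 756 in those with it.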

How the data were processed

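RNA from 12 libraries of cultured mouse CD8 T cells was sequenced as stranded mRNA libraries, per the labels. STAR and featureCounts were used with GRCm38, per the submitters' processing notes; their versions, annotation and strand setting are not given in the sources used here. Unnormalized read counts by gene were deposited for each library, with 0 rows that name no gene and 0 sample columns unused. Of 46078 genes, 14009 passed the expression filter of edgeR 4.0.16 (R 4.3.3; minimum count 10, groups known to the filter) and were scaled by TMM and fitted by the quasi-likelihood model with 1 mean per group (8 residual degrees of freedom). In all, 5 comparisons of 2 groups were made besides the interaction, under Benjamini-Hochberg adjustment over all genes. SE was derived from F, so it may be too small where counts are few. The fit was checked on simulated data. Positions and exon lengths come from GENCODE M21, promoters from RefSeq GRCm38.p6.

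The members and lists were chosen with earlier results of these data known. Named genes are the 7 members, up to 3 called genes of each list and comparison with the smallest adjusted p, and the 3 genes most like each member (1 of those for Notch1 is not reported here); Dtx2, Dtx3, Dtx3l and marker genes with few counts were added for their family or role. Alternatives were DESeq2 size factors, no filter, a replicate block, DESeq2 1.42.0 (Wald), only the groups compared, each library left out, and, added after seeing the data, 9 libraries. Same-numbered libraries of RA and IL-2 + IL-15 deviated together (correlations 0.34, 0.13 and 0.27), where pairs of unlike number gave -0.30 to 0.084. Same-numbered libraries of TGFβ + RA and TGFβ did so less strongly (0.098, 0.13 and 0.17), where pairs of unlike number gave -0.11 to -0.017. In the other comparisons the correlations of same-numbered libraries ran from 0.019 to 0.17. The main fit took no account of pairing. Libraries of a group differed by more than counting noise (chi-square per degree of freedom 4.02 to 26.0), and each counted as 1 replicate. This spread does not show whether they came from separate animals. Intervals at 95% and the 3 counts that a count of 0 allows cover counting error only.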

Additional observations from a re-analysis of the deposited data

Results flagged for a closer look

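The effect of RA on 3 of the 7 genes differed between cultures with and without TGFβ by the interaction term of the edgeR fit. The log2 difference of the effects, with minus without TGFβ, was 2.78 for Dtx1, 0.75 for Nrarp and -1.47 for Rbpj. These genes were chosen with such results in view, so the values are a description.

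Among the other pathway genes the same difference was 3.84 for the receptor Notch3, 0.55 for the ligand Jag2, -0.47 for the fringe gene Lfng and -0.87 for Aph1b, a gamma-secretase subunit. It was -0.53 for Maml2 and -0.44 for Maml3, and -1.21 for Tle2 and 0.30 for Tle4 among the corepressors. Of the turnover genes Itch had -0.26, Nedd4l 0.66 and Mib2 0.30. Of the T cell target genes Il2ra had 0.46, Ccr7 0.86 and Relb 0.31, and of the CD8 effector and memory genes Prf1 had 1.60, Id2 -0.64 and Il7r -1.05. Of the anergy genes Egr3 had -1.87, Dgkz 0.41 and Nfatc1 0.32. Of these 20 genes, 14 were called in every setting run, and Aph1b, Id2, Itch, Jag2, Maml3 and Tle4 lost the call in at least 1 setting that left out a library.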

How the results depend on the processing

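Under all alternatives run, no fold change of the 7 genes that was called in either fit changed sign, and 622 of 642 values kept their side of the threshold. Calls of Dtx1, Rbpj and Notch1 were the same throughout, and 17 of the 20 that moved were calls gained, for Notch2, Maml1 and Nrarp. Without RA replicate 2 or 3, or without TGFβ + RA replicate 3, Notch2 was called for RA and for the interaction. Without IL-2 + IL-15 replicate 3, Maml1 was called for TGFβ alone and for TGFβ in the presence of RA. DESeq2 size factors on all libraries called Maml1 for TGFβ in the presence of RA, as did the fit of only the groups compared. The DESeq2 Wald test on all libraries also called Notch2 for RA and for the interaction. With each library left out in turn, 2 to 5 of the 7 genes were called in any comparison of 2 groups and 3 to 4 for the interaction. Of the 86 other pathway genes tested, 21 were called for the interaction, where 2702 of all 14009 genes were. Their number was 15 to 30 when a library was left out and 38 with the 9 libraries. Counts of all genes called in those reduced fits are not given here, so nothing is read from these numbers. The cause was not tested. With the replicate block the 7 genes gave 4, 2, 5, 3, 4 and 3 calls in the order RA, TGFβ and TGFβ + RA against IL-2 + IL-15, TGFβ + RA against TGFβ, TGFβ + RA against RA and the interaction, and the other pathway genes 37, 47, 59, 50, 62 and 27. In the same order, the block fit called 4021, 6381, 9059, 6324, 8675 and 3072 of all 14009 genes tested. The block changed no other call of the 7 genes than that of Notch2 for RA. DESeq2 size factors moved the median of all genes by less than 0.1. The interaction was not run with only the groups compared, since it needs all 4. Depth limits Hes1, Hey1, Notch3 and the ligands that were not tested, whose counts are few.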
